A study of Homo sapiens with 12 samples.

Results

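The 29 genes described here are mesenchymal genes, genes of the YAP pathway and genes that EWSR1-FLI1 is known to repress. They were named by symbol, and all 29 were found among the 57169 genes of the count table. They were sorted by role into 13 fusion-repressed genes, 9 of the YAP pathway and 7 of the contractile cytoskeleton. This sorting does not come from these data, and repression of each of the 13 by EWSR1-FLI1 was not tested. The counts come from 12 tumour libraries of the established Ewing sarcoma line SK-ES1, grown as xenografts in a host animal that the labels do not name. The 6 control libraries are labelled wild-type and the 6 knock-down libraries are labelled as silenced for RING1B, the ubiquitin ligase of Polycomb repressive complex 1 encoded by RNF2. All are one cell line, and the labels give no silencing construct, no control construct and no statement that each library came from its own animal, and p-values therefore reflect only how much the libraries differ, which may be technical. In bulk tumour RNA, more cells of a type and more RNA per cell cannot be told apart.

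Ewing sarcoma cells are driven by the fusion EWSR1-FLI1, which activates genes from GGAA repeats and holds down a mesenchymal programme of adhesion, matrix and actin genes. Cells with little fusion protein are known to spread, form stress fibres and express LOX, NT5E and other genes of that programme. YAP1 and its paralogue TAZ, encoded by WWTR1, enter the nucleus when the Hippo kinases are inactive and switch on CTGF, CYR61 and ANKRD1 through TEAD factors. A parallel route, in which actin dynamics release MRTF cofactors to the factor SRF, drives contractile genes such as TAGLN, ACTA2 and CNN1.

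TEAD factors bind the letters GGAATG, and they are shown in capitals in 5 of the 7 member promoters that hold them, chosen to include the YAP targets CTGF and ANKRD1. Sequences are from RefSeq on GRCh38.p14, 5′ to 3′ on the strand of the gene, in the window from 250 bases before to 50 bases after its start. The CTGF windows are chr6:131951524-131951553 and chr6:131951459-131951488 (minus strand), with first matches 169 and 104 bases before the start. Those of ANKRD1 are chr10:90921290-90921319 and chr10:90921198-90921227 (minus strand), at 220 and 128 bases. The others are chr15:39581021-39581050 for THBS1, chr7:134779428-134779457 for CALD1 and chr10:52314219-52314248 for DKK1, all on the plus strand. The RefSeq starts used for CALD1 and ANKRD1 lie inside the genes as annotated by GENCODE. So do the CALD1 window and the ANKRD1 window at 128 bases.
CTGF distal: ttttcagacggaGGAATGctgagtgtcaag
CTGF proximal: ggaaggtggggaGGAATGcgaGGAATGtcc
ANKRD1 distal: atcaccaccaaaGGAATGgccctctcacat
ANKRD1 proximal: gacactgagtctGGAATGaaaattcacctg
THBS1: gaggaatccccaGGAATGcgagcgcccctt
CALD1: gagcatgcctagGGAATGacaggcatctcc
DKK1: tcccaaggggccGGAATGctccgggcccgc

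Of 25 members with a promoter in the table, 7 held GGAATG on either strand, namely these 5 with YAP1 and VCL, against 14.0% of all 35116 promoters. CTGF held 3 matches and ANKRD1 held 2, and 1.37% of all promoters held 2 or more. The CArG box of SRF was found in 1 member, FLNA, against 1.29% of all promoters. TAGLN, CYR61, TEAD1 and MYL9 were not in the table. In the tumour described below, knockdown 4, 7 of 7 members with GGAATG and 16 of 18 without it were at their highest.

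Total counts ranged from 23859184 in knockdown 4 to 26678325 in control 1, and levels are given as CPM, counts relative to the library total after TMM scaling. RNF2 was lower in every knock-down library (12.4 to 23.4 CPM) than in any control library (37.5 to 57.9 CPM; log2 fold change −1.43, edgeR adjusted p = 0.00347), and it stood at 12.9 CPM in knockdown 4. Of 10 Ewing sarcoma markers CD99 is listed at 0 in all 12 libraries and checks nothing here, and the other 9 had counts in each library. The summed level of the list was 2266 to 2456 CPM in control and 2184 to 2752 CPM in knock-down. Knockdown 4 had the lowest mean rank correlation with the other libraries, 0.964 against 0.972 to 0.984 for the rest. Fold changes of members and counts of genes above 0 are therefore given with and without it. Fold changes of RNF2 and of single genes in the pathway lists are given with all 12 libraries only. A low-count filter left 26 of the 29 members to test, and DKK1, CD44 and ANKRD1 did not pass it.

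None of the 26 tested members passed the test between the groups. At an adjusted p below 0.05 edgeR called 0 of them, against 0.297% of all 16519 genes tested (0.176% higher and 0.121% lower in knock-down). DESeq2 called 0 members, against 2.12% of all genes, and limma-voom called 0, against 0.339%. NT5E and CTGF had no adjusted p by DESeq2 and so could not be called by it. At an unadjusted p below 0.05 edgeR had 1 member, ZYX, against 12.7% of all genes. In no tested member were the groups free of overlap, against 0.648% of all genes in the higher and 0.575% in the lower direction. By edgeR 20 of the 26 had a log2 fold change above 0, with a median of 0.16, against 52.4% and a median of 0.013 over all genes.

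Most members were highest in the same tumour. Of the 29 members 26 were highest in knockdown 4, and so were 23 of the 26 tested (88.5%), against 16.7% of all genes tested. The exceptions were FOXO1, highest in control 3 (as were 10.3% of all genes), MYL9, highest in control 4 (3.97%), and AXL, highest in knockdown 5 (16.3%). NT5E, CTGF, CALD1, AJUBA, AMOTL2, IGFBP3 and CNN1 were at least 2-fold above the next library there, 7 of 26, against 1.54% of all genes. Knockdown 4 lay above the median of the other 5 knock-down libraries by a median of 1.32 on the log2 scale over the tested members and by −0.015 over all genes. It lay higher by more than 1 on that scale in 14 of the 26, against 8.18% of all genes.

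**Figure D1:**
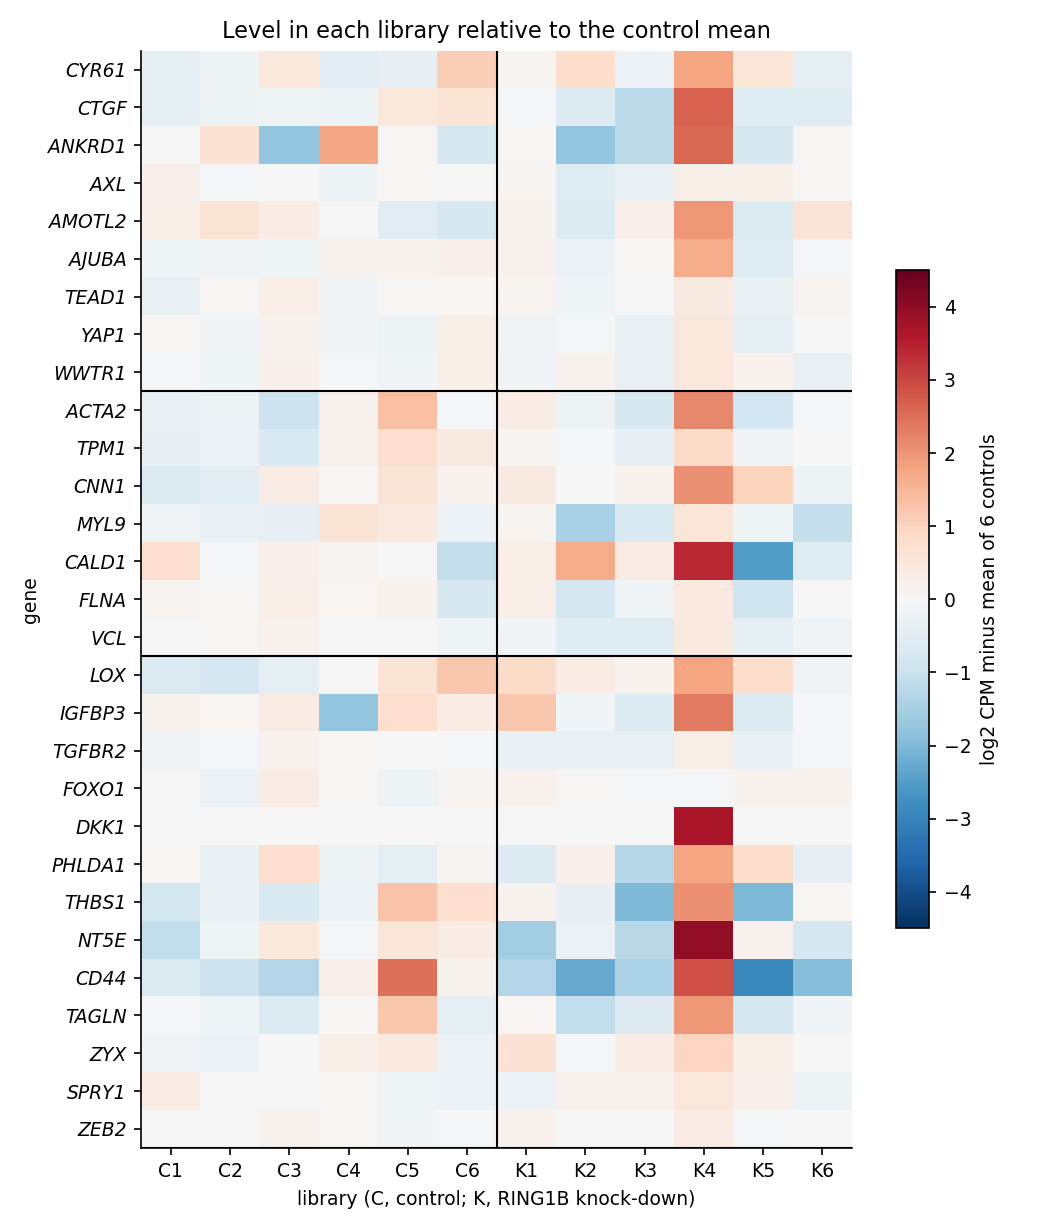
Level of each of the 29 members (rows, grouped as YAP pathway, contractile and fusion-repressed genes) in the 12 libraries (columns C1 to C6, control; K1 to K6, knock-down), as log2 CPM minus the mean of the 6 controls. The column of knockdown 4 is the highest of its row in 26 of 29 genes.

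With knockdown 4 left out, 8 of the 26 tested members were above 0 and 18 below, with a median log2 fold change of −0.093, while 49% of all genes were below 0. The sign changed in 12 of the 26, against 10.7% of all genes. Leaving out the highest library of a group lowers its mean, so these counts are not separate from the rank of knockdown 4. edgeR again called 0 members, against 0.473% of all genes. At an unadjusted p below 0.05 there were 4 members, VCL, CTGF, TGFBR2 and MYL9, all lower in knock-down, against 11% of all genes. Leaving out any of the other 11 libraries left 17 to 21 of the 26 above 0. By role, 10 of 11 tested fusion-repressed genes were above 0 with all libraries (median 0.19) and 5 without knockdown 4 (median −0.019). Of 8 tested YAP pathway genes 6 were above 0 (median 0.21), and 1 without knockdown 4 (median −0.065). Of 7 contractile genes 4 were above 0 (median 0.044), and 2 without knockdown 4 (median −0.27).

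**Figure D2:**
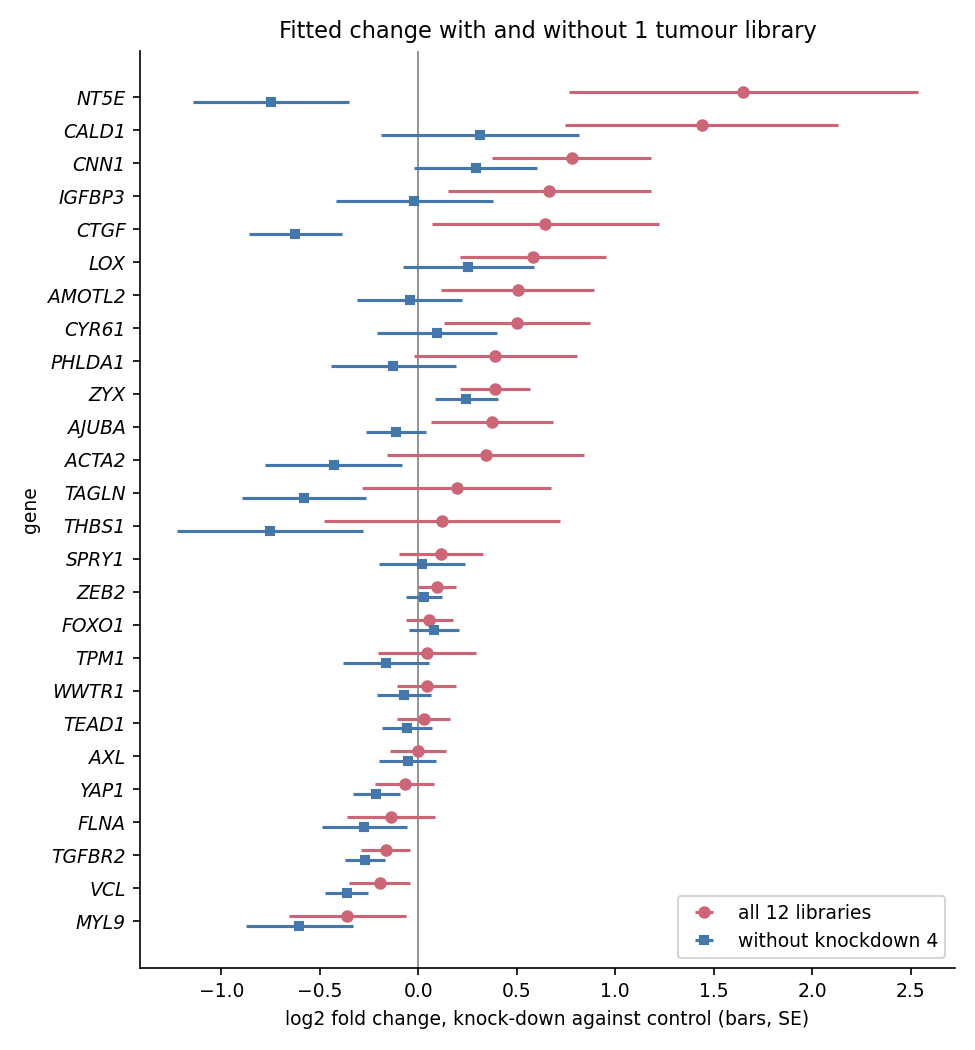
Log2 fold change of knock-down against control for the 26 tested members from edgeR, with all 12 libraries (circles) and without knockdown 4 (squares); bars are SE. NT5E goes from 1.65 to −0.75 and CTGF from 0.64 to −0.62, while ZYX stays above 0 in both.

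Knockdown 4 shares its title number, 67, with knockdown 3, and the labels do not say what the number marks. All 26 tested members were higher in knockdown 4 than in knockdown 3, with a median difference of 1.42 on the log2 scale, while 49.1% of all genes were higher. The median absolute difference between these libraries was 0.34 over all genes. In the other pairs that share a number, 13 of 26 members were higher in control 2 than in control 1, 16 of 26 in control 5 than in control 4, and 16 of 26 in knockdown 6 than in knockdown 5. Their median differences were −0.030, 0.11 and 0.13. The SD of log2 CPM had a median over members of 0.43 in control and 0.71 in knock-down, against 0.27 and 0.31 over all genes. It was larger in knock-down in 23 of the 26, against 59.9% of all genes.

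Per kilobase of exon, the members spanned a wide range of levels. FLNA, which crosslinks actin filaments, was the most abundant at a mean of 79.8 CPM per kilobase, followed by the focal adhesion proteins ZYX (29.5) and VCL (16.0), CYR61 (12.1) and YAP1 (10.1). The least abundant were DKK1 (0.0354), CD44 (0.0823) and ANKRD1 (0.155), at 0, 0.0503 and 0.0982 over the 11 libraries other than knockdown 4. NT5E and CALD1, which stood far above the rest in knockdown 4, had means of 0.481 and 0.653 CPM per kilobase, and of 0.189 and 0.390 over the other 11 libraries.

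The transcription cofactors of the YAP pathway and TEAD1, the only TEAD factor among the members, did not pass the test. YAP1 (chromosome 11 from 102110461 to 102233423, hg38, plus strand) lay between 55.0 and 78.5 CPM in control, with a median of 63.2. In knock-down it lay between 47.9 and 92.0 CPM with a median of 59.5, and the 5 libraries other than knockdown 4 reached at most 63.3 CPM. The groups overlapped, with a log2 fold change of −0.069 (SE 0.149 and adjusted p = 0.887 by edgeR), and of −0.21 without knockdown 4. WWTR1, which encodes TAZ, ranged from 30.3 to 41.4 CPM in control (median 32.2) and from 27.1 to 49.1 CPM in knock-down (median 35.3), with knockdown 4 again on top. Its log2 fold change was 0.042 (SE 0.151 and adjusted p = 0.939 by edgeR) with and −0.072 without that library. TEAD1 ranged from 52 to 80.5 CPM in control (median 68.6) and from 52.8 to 87.7 CPM in knock-down (median 68.9), with a log2 fold change of 0.027 (SE 0.133 and adjusted p = 0.957 by edgeR), and of −0.058 without knockdown 4. For these 3 members knockdown 4 was the highest of 12 libraries, by a factor of 1.09 to 1.19 over the next. TEAD2, TEAD3 and TEAD4, which are not members, were also highest in knockdown 4. They had log2 fold changes of 0.31, 0.47 and 0.0087 (adjusted p = 0.265, 0.396 and 0.984 by edgeR).

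The secreted targets of YAP varied more between tumours than the cofactors did. CTGF, a matricellular protein of the CCN family (chromosome 6 from 131948176 to 131951373, minus strand), lay between 5.82 and 12.3 CPM in control with a median of 6.84. It lay between 3.39 and 50.7 CPM in knock-down with a median of 5.35. Knockdown 4 was 4.12 times the highest control, and the other 5 knock-down libraries reached at most 7.36 CPM. Knockdowns 2, 3, 5 and 6 lay below every control, at 5.29, 3.39, 5.35 and 5.36 CPM. The fitted log2 fold change was 0.64 (SE 0.576 and adjusted p = 0.674 by edgeR) with all libraries and −0.62 (SE 0.237 and adjusted p = 0.34 by edgeR) without knockdown 4. CYR61, the sister gene of CTGF (chromosome 1 from 85580761 to 85583962, plus strand), lay between 15.8 and 48.0 CPM in control (median 18.2) and between 16.9 and 77.8 CPM in knock-down (median 28.7). Its highest control was control 6, so a high level was not limited to the knock-down group, and the log2 fold change was 0.50 (SE 0.371 and adjusted p = 0.601 by edgeR) with and 0.096 without knockdown 4.

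ANKRD1, a nuclear ankyrin repeat protein, was too low to test. Its counts were 5, 9, 0, 21, 5 and 2 in controls 1 to 6 and 5, 0, 1, 36, 2 and 5 in knockdowns 1 to 6. The largest count was in knockdown 4 and the next in control 4, and a count of 0 allows up to 3 counts, 0.109 to 0.128 CPM in these libraries. AXL, a receptor tyrosine kinase, was even across tumours, between 16.5 and 28.9 CPM in all 12 libraries, with a log2 fold change of −0.00091 (edgeR adjusted p = 0.998), and of −0.054 without knockdown 4.

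AMOTL2, which binds YAP and holds it out of the nucleus, and AJUBA, which inhibits the LATS kinases, stood apart in knockdown 4. AMOTL2 lay between 7.54 and 19.2 CPM in control (median 13.8) and between 8.10 and 48.5 CPM in knock-down (median 14.3), with no other knock-down library above 18.9 CPM. Its log2 fold change was 0.50 (SE 0.389 and adjusted p = 0.618 by edgeR) with and −0.044 without knockdown 4. AJUBA was tight in all other libraries, from 8.81 to 15.1 CPM, and at 41.3 CPM in knockdown 4, 2.74 times the next. The log2 fold change of AJUBA was 0.38 (adjusted p = 0.644 by edgeR) with and −0.11 without knockdown 4.

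**Figure D3:**
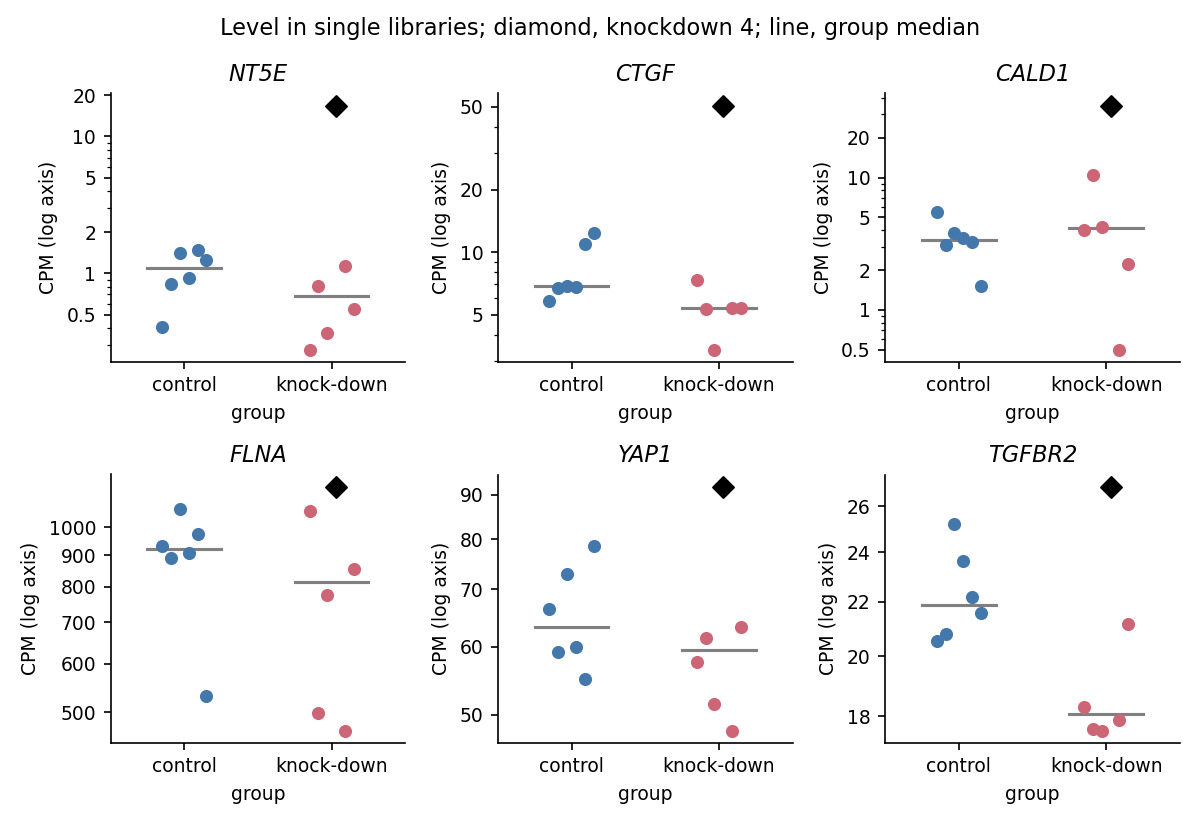
CPM on a log axis of 6 members in the 6 control and 6 knock-down libraries; each point is a library, the diamond is knockdown 4 and the line is the group median. Knockdown 4 is the highest point in every panel. The other 5 knock-down libraries overlap the controls or, in CTGF and TGFBR2, lie mostly below them.

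Most contractile genes were highest in knockdown 4 as well. CALD1, an actin-binding regulator of contraction (chromosome 7 from 134744252 to 134970728, plus strand), lay between 1.51 and 5.52 CPM in control with a median of 3.37. It ranged from 0.501 CPM in knockdown 5 to 34.9 CPM in knockdown 4, with a median of 4.13 and with 10.5 CPM in knockdown 2. The knock-down libraries thus lay on both sides of all controls, with a log2 fold change of 1.44 (SE 0.694 and adjusted p = 0.409 by edgeR) with and 0.31 without knockdown 4. CNN1, the smooth muscle calponin, had 15 to 35 counts in control and 19 to 93 in knock-down, which is 0.556 to 1.39 CPM (median 0.967) and 0.749 to 3.96 CPM (median 1.12). Its log2 fold change was 0.78 (SE 0.403 and adjusted p = 0.438 by edgeR) with and 0.29 without that library.

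ACTA2, smooth muscle actin, lay between 5.86 and 29.1 CPM in control (median 10.2) and between 6.14 and 50.2 CPM in knock-down (median 10.3). TAGLN, the actin-binding protein SM22, which is sorted with the fusion-repressed genes, lay between 5.46 and 19.3 CPM in control (median 7.65) and between 3.85 and 32.3 CPM in knock-down (median 6.55). In both genes knockdown 4 was highest and control 5 next, at 29.1 CPM for ACTA2 and 19.3 CPM for TAGLN. The log2 fold change of ACTA2 was 0.34 (SE 0.498 and adjusted p = 0.817 by edgeR) with and −0.43 without knockdown 4. That of TAGLN was 0.19 (SE 0.480 and adjusted p = 0.903 by edgeR) with and −0.58 without it. TPM1, a tropomyosin, was highest in the same libraries, at 46.1 CPM in knockdown 4 and 42.2 CPM in control 5 (log2 fold change 0.044, edgeR adjusted p = 0.962, and −0.16 without knockdown 4). ACTA2 and TPM1 belong to families of similar sequence, and the counting of reads shared between such genes is not stated.

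VCL, MYL9 and FLNA had log2 fold changes below 0 with and without knockdown 4. VCL, the focal adhesion protein vinculin, lay between 148 and 193 CPM in control (median 170) and between 116 and 155 CPM in the 5 knock-down libraries other than knockdown 4, which was at 231 CPM. Its log2 fold change was −0.20 (SE 0.154 and adjusted p = 0.62 by edgeR) with and −0.36 (SE 0.110 and adjusted p = 0.227 by edgeR) without that library. MYL9, a regulatory light chain of myosin, was between 17.2 and 34.5 CPM in control (median 19.3) and between 8.04 and 32.2 CPM in knock-down (median 16.8), with a log2 fold change of −0.36 (SE 0.298 and adjusted p = 0.646 by edgeR) with and −0.60 without knockdown 4. FLNA was at 531 to 1071 CPM in control and at 467 to 1164 CPM in knock-down (log2 fold change −0.14, edgeR adjusted p = 0.837, and −0.27 without knockdown 4), with control 6 far below the other controls. None of these 3 differences passed the test.

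Of the genes that the fusion represses, NT5E showed the largest departure. NT5E, the ectonucleotidase CD73 that makes adenosine (chromosome 6 from 85449584 to 85495791, plus strand), lay between 0.408 and 1.47 CPM in control with a median of 1.09. The 5 other knock-down libraries lay between 0.277 and 1.13 CPM, and knockdown 4 was at 16.7 CPM, from 393 counts. That is 11.4 times the highest control and 46.0 times knockdown 3, which shares its title number. The log2 fold change was 1.65 (SE 0.884 and adjusted p = 0.459 by edgeR) with and −0.75 (SE 0.397 and adjusted p = 0.504 by edgeR) without knockdown 4. The mean of the knock-down group, 3.31 ± 6.58 CPM (SD, n = 6), against 1.05 ± 0.403 CPM (SD, n = 6) in control, had an SD larger than itself.

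DKK1 and CD44, both of low abundance, were also highest in that tumour. DKK1, a secreted Wnt inhibitor, had 22 counts in knockdown 4 and 0 in each of the other 11 libraries. CD44, the hyaluronan receptor, had 102 counts in knockdown 4, 81 in control 5 and at most 16 in any other library. CD44 was at most 0.158 CPM in the 5 other knock-down libraries and at 4.34 CPM in knockdown 4.

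LOX, the lysyl oxidase that crosslinks collagen (chromosome 5 from 122063195 to 122078360, minus strand), varied in both groups. It lay between 4.82 and 18.7 CPM in control (median 7.04) and between 7.29 and 27.9 CPM in knock-down (median 12.1). Control 6 and control 5 were the highest controls and knockdown 4 the highest of all, and the log2 fold change was 0.58 (SE 0.372 and adjusted p = 0.536 by edgeR). It was 0.25 without knockdown 4 and 0.92 without control 6 (edgeR adjusted p = 0.19). IGFBP3, which binds insulin-like growth factors and is a direct repressed target, lay between 1.05 and 6.24 CPM in control (median 4.34) and between 2.37 and 18.9 CPM in knock-down (median 3.45). Its log2 fold change was 0.67 (SE 0.514 and adjusted p = 0.619 by edgeR) with and −0.019 without knockdown 4. PHLDA1, a pleckstrin homology protein, lay between 6.21 and 14.5 CPM in control (median 8.07) and between 3.46 and 29.2 CPM in knock-down (median 8.30), and its log2 fold change of 0.39 (SE 0.413 and adjusted p = 0.731 by edgeR) became −0.13 without knockdown 4. THBS1, the matrix protein thrombospondin, lay between 3.97 and 17.0 CPM in control (median 5.73) and between 1.67 and 28.9 CPM in knock-down (median 6.37). Its log2 fold change was 0.12 (SE 0.599 and adjusted p = 0.956 by edgeR) with and −0.75 without knockdown 4, and its highest control was control 5.

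TGFBR2, the type II TGF-beta receptor and a long known repressed target (chromosome 3 from 30606502 to 30694142, plus strand), differed in the opposite direction. It lay between 20.5 and 25.2 CPM in control (median 21.9), and 4 of the 6 knock-down libraries lay below every control, between 17.6 and 18.3 CPM. Knockdown 6 was at 21.2 CPM and knockdown 4 at 26.9 CPM, the highest of all. The log2 fold change was −0.17 (SE 0.122 and adjusted p = 0.60 by edgeR) with and −0.27 (SE 0.104 and adjusted p = 0.35 by edgeR) without knockdown 4, and neither passed the test. FOXO1, a forkhead factor repressed by the fusion (log2 fold change 0.056 with SE 0.119 and adjusted p = 0.885 by edgeR, and 0.081 without knockdown 4), was steady, between 15.4 and 23.3 CPM in control (median 18.9) and between 17.3 and 21.0 CPM in knock-down (median 19.9). In knockdown 4 it was at 17.8 CPM, below its control median.

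ZYX, the focal adhesion protein zyxin, had the smallest p of the members (chromosome 7 from 143381080 to 143391111, plus strand). It lay between 72.2 and 118 CPM in control (median 83.0) and between 83.5 and 172 CPM in knock-down (median 109). The groups overlapped, with a log2 fold change of 0.39 (SE 0.179, with unadjusted p = 0.0463 and adjusted p = 0.384 by edgeR) and of 0.24 (edgeR adjusted p = 0.588) without knockdown 4. SPRY1, a brake on receptor kinase signalling, and ZEB2, a repressor of epithelial genes, differed little, at 0.12 and 0.093 on the log2 scale (adjusted p = 0.866 and 0.723 by edgeR), and at 0.019 and 0.029 without knockdown 4. SPRY1 lay between 1.15 and 2.04 CPM and ZEB2 between 117 and 165 CPM over all 12 libraries, with knockdown 4 highest in both.

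**Figure D4:**
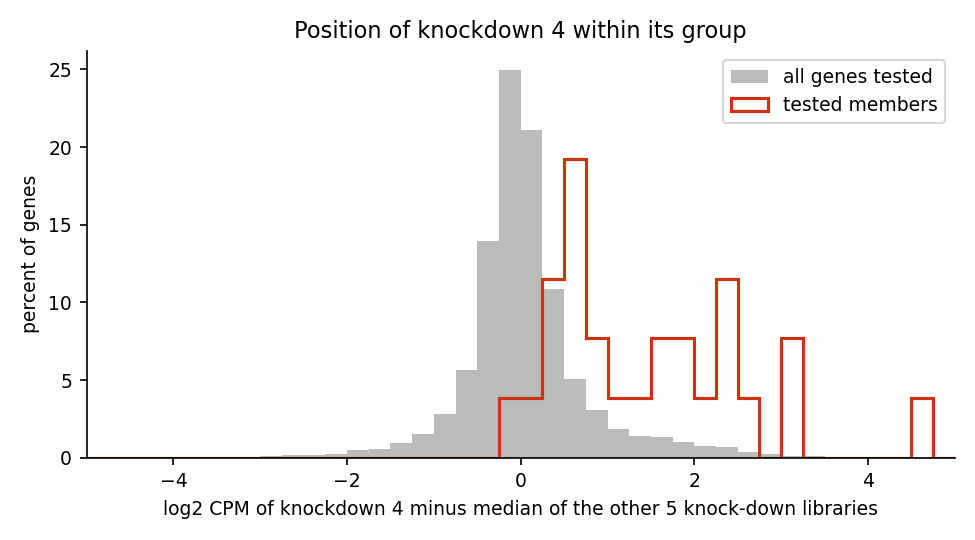
Distribution of the log2 CPM of knockdown 4 minus the median of the other 5 knock-down libraries, for all 16519 genes tested (grey) and the 26 tested members (red line), each as a percent of its genes in bins of 0.25. The members lie to the right of the bulk, with a median of 1.32 against −0.015 for all genes.

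Exons of other genes lie over some members, and without a stated strand setting their reads cannot be told apart. SRFBP1 overlaps LOX, PCSK7 overlaps TAGLN, FSIP1 overlaps THBS1, AP3M1 overlaps VCL and FAS overlaps ACTA2, all on the opposite strand. In knockdown 4 SRFBP1 was at 10.8 CPM, PCSK7 at 12.9, FSIP1 at 1.15 and AP3M1 at 93.1 CPM, each inside the range of the other 11 libraries. FAS was highest in knockdown 4, at 11.9 CPM against at most 9.94 CPM elsewhere.

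Genes of the same pathways outside the members were also often highest in knockdown 4. Of 140 tested genes in 6 lists, 59 were highest there, against 16.7% of all genes. By the ratio of CPM, 12 were at least 2 times the next library. Over all genes 1.54% were at least 2-fold above the next library there, by log2 CPM with its prior count, which is not the same measure. Other list genes were lowest in knockdown 4, among them F3, RBMS3, LIMD1, MRTFB, TGFBR1, LTBP1 and SKIL. The list genes below with the smallest p were named by rule, while those named for their level in knockdown 4 were chosen after their values were seen. Among YAP and TEAD targets other than members, 11 of 18 were above 0 with 0 called by edgeR and a median of 0.094. FJX1, a secreted regulator of the Fat pathway, had a log2 fold change of 1.09 (edgeR adjusted p = 0.156) and FSTL1, a secreted glycoprotein, of −0.28 (0.231). Without knockdown 4 that list had 7 of 18 above 0 and a median of −0.13. MYOF, CRIM1 and FJX1 were 3.62, 2.42 and 2.48 times the next library in knockdown 4.

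The Hippo kinases and partners of YAP were above 0 in 11 of 24, with 0 called by edgeR and a median of −0.036, and in 7 of 24 with a median of −0.11 without knockdown 4. VGLL3, a TEAD cofactor, had a control mean of 35.8 ± 6.39 CPM and a knock-down mean of 20.5 ± 4.51 CPM (SD, n = 6), a log2 difference of −0.81 with adjusted p = 0.0511 by edgeR. AMOT, the angiomotin that binds YAP, had a control mean of 0.416 ± 0.409 CPM and a knock-down mean of 2.68 ± 1.59 CPM (SD, n = 6), a log2 difference of 2.69 with adjusted p = 0.103 by edgeR. Neither passed the test. SRF and MRTF regulated cytoskeletal genes were above 0 in 21 of 33 with 0 called and a median of 0.037, and in 17 of 33 with a median of 0.015 without knockdown 4. TAGLN2 was at 0.38 and the myosin heavy chain MYH9 at −0.46 (edgeR adjusted p = 0.336 and 0.358). FLNC, the muscle filamin, was at 9.88 CPM in knockdown 4 and at most 1.59 CPM elsewhere.

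Genes of the TGF-beta pathway were above 0 in 9 of 20, with 0 called and a median of −0.043, and in 4 of 20 with a median of −0.12 without knockdown 4. The receptor TGFBR1, partner of TGFBR2, had a log2 fold change of −0.36 and the latent binding protein LTBP1 of −0.32 (edgeR adjusted p = 0.284 and 0.322). TGFBI, a matrix protein that TGF-beta signalling induces, was at 25.6 CPM in knockdown 4 and at most 6.21 CPM elsewhere. In the list of other mesenchymal and adhesion genes 15 of 27 were above 0 with a median of 0.087, and 13 of 27 with a median of −0.021 without knockdown 4. With all libraries 1 was called, TWIST1, a mesenchymal transcription factor, whose highest library was knockdown 2 (log2 fold change 1.0, edgeR adjusted p = 0.045). SNAI2, a related repressor, had a log2 fold change of 0.77 (edgeR adjusted p = 0.0951) and was highest in knockdown 5. The matrix proteins fibronectin (FN1) and tenascin C (TNC) had the largest upward departures. FN1 was at 1806 CPM in knockdown 4 and at most 105 CPM elsewhere, and TNC at 493 CPM and at most 40.3 CPM. Of this list 12 genes were highest in knockdown 4, but for ZEB1, ITGA2 and S100A4 it was the lowest library. These were at 5.41, 2.09 and 113 CPM there, and at up to 25.8, 8.50 and 306 CPM elsewhere. Relatives of members in the SPRY, FOXO, DKK, THBS, LOX, IGFBP and AXL families were above 0 in 18 of 25 with 0 called and a median of 0.09, and in 13 of 25 with a median of 0.0021 without knockdown 4. FOXO3 had a log2 fold change of 0.28 and the receptor MERTK of −0.31 (edgeR adjusted p = 0.345 and 0.353).

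Markers of host cell types were measured in the same libraries, since fibroblasts, pericytes and smooth muscle express many of the members. The 8 fibroblast markers summed to 501 to 1503 CPM in control and 374 to 1488 CPM in knock-down, highest in control 5 (1503), knockdown 4 (1488) and control 6 (1245). By mean log2 CPM, the measure used for the members, the same list was at 4.89 in control 6, 4.70 in control 5 and 4.57 in knockdown 4. The mean log2 CPM of the tested members was 5.4 in knockdown 4 and between 3.66 and 4.29 in the other 11 libraries, of which control 5 was highest. Within the fibroblast list the collagens COL1A1 and COL1A2 were at 658 and 331 CPM in knockdown 4, while DCN was at 37.8, LUM at 6.34 and FAP at 7.37 CPM, the latter pair below every other library. The pericyte and smooth muscle list summed to 101 to 205 CPM in control and 81.6 to 170 CPM in knock-down and was at 156 CPM in knockdown 4, where its marker MYH11 was at 2.0 CPM against 2.55 CPM in control 5.

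The macrophage and leukocyte list summed to 5.63 to 24.9 CPM in control and 7.21 to 32.4 CPM in knock-down, and its sum was highest in knockdown 4. Its genes LYZ, AIF1 and ITGAM were highest there, at 15.3, 10.8 and 0.639 CPM. PTPRC and CSF1R were highest in control 5, at 2.23 and 4.26 CPM against 1.19 and 3.41 CPM in knockdown 4. TYROBP was highest in control 6, at 1.13 against 1.06 CPM, and CD68 and CD14 were at 0.0426 CPM in knockdown 4. Endothelial markers summed to 12 to 16.6 CPM in control and 9.65 to 16.1 CPM in knock-down, and were highest in control 5 and knockdown 4. Within that list knockdown 4 was the lowest library for EMCN, at 5.37 CPM. It was the highest for PECAM1, CDH5 and TIE1, at 0.724, 2.17 and 2.68 CPM. Skeletal muscle markers (2.75 to 24.6 CPM in control and 1.40 to 14.9 CPM in knock-down), keratinocyte markers (21.7 to 54.7 and 31.9 to 54.2 CPM) and adipocyte markers (0.465 to 1.55 and 0.619 to 1.58 CPM) stood at 7.37, 41.7 and 1.58 CPM in knockdown 4, which was highest only for the adipocyte list. No gene of these 7 lists was at 0 in all libraries, but many did not pass the low-count filter. Tested were 6 of 8 fibroblast, 7 of 8 pericyte and smooth muscle, 5 of 8 endothelial and 4 of 8 leukocyte markers. Of the skeletal muscle, adipocyte and keratinocyte markers 2 of 8, 1 of 5 and 1 of 4 were tested. edgeR called 0 of the markers tested, against 0.297% of all genes. The part of host cells in the member values was not tested.

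**Figure D5:**
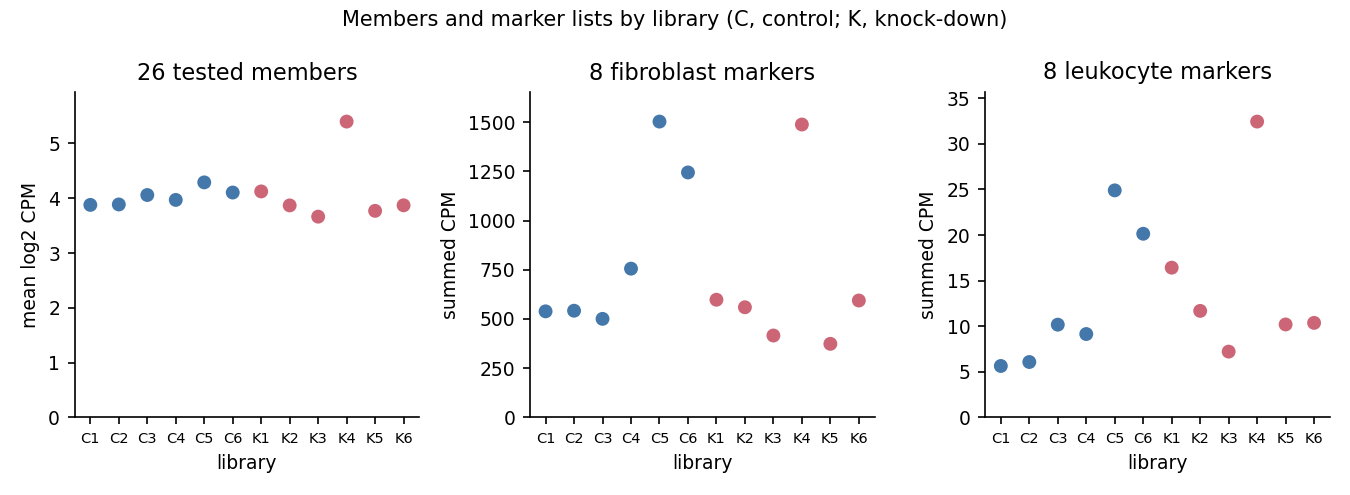
Mean log2 CPM of the 26 tested members, summed CPM of 8 fibroblast markers and summed CPM of 8 macrophage and leukocyte markers in each library (C1 to C6, control; K1 to K6, knock-down; 1 point per library). Knockdown 4 is highest for the members and the sum of leukocyte markers, and control 5 is level with it for the sum of fibroblast markers. The measure of the members is not the same as that of the markers.

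Of the 9 Ewing sarcoma markers with counts, 5 lay inside the control range in knockdown 4 and 4 lay above every control. NR0B1, an orphan receptor that the fusion activates, was at 88.1 CPM there and between 75.2 and 207 CPM in control. The homeobox factor NKX2-2 was at 31.6 CPM against 23.7 to 35.6 CPM, FLI1 at 66.0 against 57.7 to 82.5 CPM and EWSR1 at 431 against 372 to 485 CPM. STEAP1 was also inside the range. PAPPA, a protease of IGF binding proteins, and CCND1, cyclin D1, were above every control there, at 38.4 and 1322 CPM, as were LIPI and KDSR. LIPI and KDSR were higher still in knockdown 5, at 39.5 and 619 CPM. LIPI was also above every control in knockdown 2 (31.4 CPM), and KDSR in knockdown 1 and knockdown 2 (497 and 518 CPM).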

How the data were processed

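RNA from 12 xenograft libraries was sequenced from stranded mRNA libraries, per the labels' protocols. The authors deposited raw read counts per gene, without normalisation. Per the submitters' processing notes, reads were handled with FastQC, STAR 2.6.0a, featureCounts, limma 3.40.2 and R 3.6.0 on hg38. Not given in the sources used here were the strand setting, the handling of multiply aligned reads and any removal of host reads, so host reads may be counted with tumour reads. All 12 columns of counts were mapped to samples by title, and replicates were numbered in accession order.

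Counts were analysed in R 4.3.3. filterByExpr in edgeR 4.0.16 kept 16519 genes with at least 99.72% of the counts. Groups were compared with TMM factors and robust fits in edgeR's quasi-likelihood F test, without covariates, adjusted over all genes tested by Benjamini-Hochberg and called below 0.05. Log2 CPM has a prior count of 2. RNF2 had an exact two-sided permutation p of 0.00216 over 924 divisions, the smallest possible. Alternatives used DESeq2 1.42.0 and limma 3.58.1.

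Members and lists were chosen with earlier results of these data known. A rule set which 21 members are given in full and left the other 8 to ranges and counts. It took those with the 6 smallest adjusted p, the 3 largest or smallest log2 fold changes, a sign lost with a shift over 0.5 without 1 library, or a set role. Up to 2 genes per pathway list were named by smallest adjusted p. Lists hold no members. Gene positions are from GENCODE release 29 and match the table's exons.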

Additional observations from a re-analysis of the deposited data

Results flagged for a closer look

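Within a group of 6 libraries a single library stood far from the other 5 in 8 of 59 groups of values with any spread, where chance flags about 1 in 20. Over the 26 tested members this held for 6 of 52 groups (11.5%), against 7.86% of the groups of all genes tested. The library was knockdown 4, as the highest, in 5.77% of these groups of members and in 0.726% of those of all genes. In 5 of the 8 that library was knockdown 4, always as the highest: NT5E at 16.7 CPM (next 1.13), CTGF at 50.7 CPM (next 7.36), AJUBA at 41.3 CPM (next 14.9), CD44 at 4.34 CPM (next 0.158) and DKK1 at 0.937 CPM (next 0). Among controls, TAGLN was high in control 5 at 19.3 CPM (next 8.67). IGFBP3 was low in control 4 at 1.05 CPM, with the next at 3.91 CPM, and FLNA was low in control 6 at 531 CPM, with the next at 891 CPM. The members share libraries, so these are not independent.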

How the results depend on the processing

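No member was called in any of the 23 alternative fits or at an adjusted p below 0.01, and RNF2 kept its call in all of these fits. The smallest adjusted p of a member over the fits was 0.128, for LOX by limma-voom with sample quality weights. The number called over all genes was 49 by edgeR, 351 by DESeq2, 500 by limma-voom with sample quality weights, 91 with the title number as a random effect and 7 with counts summed by title number. DESeq2 gave no adjusted p for 2 members. The count of tested members above 0 was 20 of 26, and 8 to 21 over the fits that leave out 1 library. It was 22 with the title letter as a covariate (median log2 fold change 0.31) and 13 with sample quality weights. It was 7 without control 5 and knockdown 4, a setting chosen after seeing the data. The members highest in knockdown 4 numbered 26 under each scaling and prior count tried. The spread within groups was 0.54, and 0.43 without knockdown 4.

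Signs of uncalled members that changed are given as log2 fold changes, and the cause was not tested. By limma-voom THBS1 was at −0.36, NT5E at −8.1e-05, TAGLN at −0.10 and CTGF at −0.073. With sample quality weights PHLDA1 was at −0.31, THBS1 at −0.11, NT5E at −0.54, TAGLN at −0.13, SPRY1 at −0.12, CTGF at −0.13 and WWTR1 at −0.047. With counts summed by title number FOXO1 was at −0.0038, THBS1 at −0.017, TEAD1 at −0.051 and WWTR1 at −0.050. With the title number as a random effect THBS1 was at −0.37, TAGLN at −0.11 and CTGF at −0.050, and adjusting for the title letter gave AXL 0.030 and YAP1 0.0081. Without control 5 and knockdown 4, PHLDA1 was at −0.23, THBS1 at −0.40, NT5E at −0.64, TAGLN at −0.23, SPRY1 at −0.031, ZEB2 at −0.0041, CYR61 at −0.0042, CTGF at −0.54, AMOTL2 at −0.15, AJUBA at −0.089, TEAD1 at −0.063, WWTR1 at −0.11 and ACTA2 at −0.022. Leaving out each library in turn gave THBS1 −0.75 to 0.47, AXL −0.062 to 0.086, TEAD1 −0.058 to 0.090, TPM1 −0.16 to 0.21, FOXO1 −0.0062 to 0.12, WWTR1 −0.072 to 0.10, IGFBP3 −0.019 to 0.84, PHLDA1 −0.13 to 0.58, NT5E −0.75 to 1.89, TAGLN −0.58 to 0.54, CTGF −0.62 to 0.835, AMOTL2 −0.044 to 0.66, AJUBA −0.11 to 0.51 and ACTA2 −0.43 to 0.75. No paired analysis was possible because no title number occurs in both groups. Members under about 1 CPM rest on few counts, and a count of 0 allows up to 3.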
